A study of Mus musculus with 123 samples.

Results

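The late inner cell masses (ICMs) of the Oct4 and Sox2 mouse lines were compared to find the genes whose response to losing Oct4 (gene symbol Pou5f1) differed from their response to losing Sox2. They were chosen by their labels for line, genotype and stage, which gave 32 late ICMs of the 123 embryos in the series, 8 each of Oct4 Ctrl, Oct4-KO, Sox2 Ctrl and Sox2-KO. Each library came from 1 ICM, and each transcript molecule carried a unique molecular identifier (UMI), so that copies made by PCR were counted once. The quantity described throughout is the KO effect in the Oct4 line minus the KO effect in the Sox2 line, on the log2 scale, called the difference between the lines. A value below 0 means that a gene was lower in Oct4-KO, relative to its own Ctrl, than it was in Sox2-KO relative to its own Ctrl.

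In the Oct4 line, Oct4 flox/flox; ZP3-Cre females had been mated with Oct4 +/mKO2 males. Their Oct4-KO embryos had lost both the maternal and the zygotic gene and carried the orange reporter mKO2 at the paternal allele. Their Oct4 Ctrl embryos had lost the maternal gene and kept 1 intact paternal allele. The Sox2 line was built the same way, with Sox2 flox/flox; ZP3-Cre females and Sox2 +/EGFP males. ZP3-Cre is active in the growing oocyte, so every Ctrl embryo here lacked the maternal gene as well, and KO embryos were told from Ctrl embryos by reporter fluorescence. All 32 embryos were labelled B6C3F1, had been collected at E2.5 and cultured with the MEK inhibitor PD0325901 at 1 µM, and were taken at E4.5 as ICMs freed of trophectoderm by immunosurgery. Oct4 MWT late ICMs, whose mothers had the gene intact, were kept out of the comparison and serve below as a second control. Their titles say late ICM while their source name gives an earlier stage, so values with this control may also carry a difference in stage. The Sox2 line had no MWT late ICM in the files used here.

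Oct4 is a POU-domain factor and Sox2 an HMG-box factor. They bind DNA side by side at composite sites that join an octamer and a Sox motif, and in embryonic stem cells they share many targets. In the blastocyst the ICM gives rise to the epiblast, which is pluripotent, and to the primitive endoderm, while the outer cells form the trophectoderm. Oct4 is known for holding back trophectoderm genes and is also needed for the primitive endoderm, and inhibition of MEK directs ICM cells to the epiblast.

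Total UMIs per late ICM ran from 525,755 to 990,034, and 1 UMI in the shallowest embryo, Oct4 Ctrl 2-1, was worth 1.90 CPM, the count scaled to a fixed total per embryo. Among 112 pairs of embryos of the same group, none had near-equal counts (lowest chi-square per gene 2.91, median 5.37). Embryo numbers begin with 1 or 2, a division whose meaning the labels do not give, and each group held 3 to 5 embryos of each kind. The labels do not tie embryos to litters or mothers, so the p-values measure the spread between these embryos. UMIs of Y-linked genes reached at least 10 in 5 Oct4 Ctrl, 2 Oct4-KO, 6 Sox2 Ctrl and 3 Sox2-KO embryos, so sex was not balanced over the groups. Summed trophectoderm markers (7 genes, none at 0 UMIs in any group) ran from 309 to 1950.2 CPM in Oct4 Ctrl, from 3781 to 6675 in Oct4-KO, from 198 to 3679 in Sox2 Ctrl and from 645 to 2127 in Sox2-KO. A pair of Sox2 Ctrl embryos, 1-10 and 2-6, stood above the other 6 Sox2 Ctrl embryos in these markers, so the main counts and those of several lists are also given without them. Summed epiblast markers ran from 1588 to 2551 CPM in Oct4 Ctrl, from 321 to 852 in Oct4-KO, from 1555 to 2587 in Sox2 Ctrl and from 929 to 1556 in Sox2-KO. Summed primitive endoderm markers overlapped in all 4 groups, between 120 and 810 CPM.

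The targeted genes were read first. Pou5f1 (chr17:35506018-35510772, plus strand; mm10 here and throughout) measured 24.1 to 63.1 CPM with a median of 42.6 in Oct4 Ctrl, 0 to 1.26 with a median of 0 in Oct4-KO, 73.4 to 212 with a median of 91.9 in Sox2 Ctrl and 53.2 to 170.4 with a median of 117 in Sox2-KO. The 8 Oct4-KO embryos held 1 UMI in all against 236 in the Oct4 Ctrl embryos, a ratio of 265 (95% counting interval 47.1 to 10513). Intervals of this kind cover counting error only. In the Sox2 line Pou5f1 overlapped between KO and Ctrl, with a KO effect of 0.07 ± 0.19 (adjusted p = 0.86). The Oct4 Ctrl embryos had less Pou5f1 than the Sox2 Ctrl embryos, by -1.33 ± 0.20 (adjusted p = 2.9e-06) on the log2 scale, and the cause was not tested. The MWT late ICMs measured 21.8 to 87.8 CPM with a median of 47.9, a range that holds the whole Oct4 Ctrl range. A gene of 0 or near 0 UMIs in a group has no fitted fold change that can be read as a bound, so such genes are given by their UMIs.

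Sox2 (chr3:34650405-34652461, plus strand) measured 133 to 473 CPM with a median of 308 in Oct4 Ctrl, 10.4 to 219.7 with a median of 87.9 in Oct4-KO, 92.1 to 281 with a median of 162 in Sox2 Ctrl and 8.16 to 32.3 with a median of 14.1 in Sox2-KO. The Sox2-KO range lay wholly below the Sox2 Ctrl range and the KO effect was -3.35 ± 0.32 (adjusted p = 8.0e-14). Oct4-KO embryos also had less Sox2 than their Ctrl, with a KO effect of -1.62 ± 0.27 (adjusted p = 1.0e-06). The Oct4-KO embryos spread from far below the Oct4 Ctrl range to within it. The difference between the lines was 1.74 ± 0.42 (adjusted p = 0.0033). In early ICMs, which are other embryos, the Sox2-KO effect on Sox2 was -2.12 (adjusted p = 2.9e-07) and the Oct4-KO effect 0.31 (adjusted p = 0.45). The late difference for Sox2 was 0.96 (adjusted p = 0.37) among embryos numbered 1- alone and 1.19 (adjusted p = 0.054) with the MWT embryos as the Oct4-line control. The long noncoding gene Sox2ot overlaps Sox2 on the same strand and held 22 UMIs in the late ICMs against 3611 for Sox2.

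Over all genes, losing Oct4 changed more genes than losing Sox2, and for 886 of the 14,053 genes tested (6.3%) the KO effects of the lines differed. A gene was called at a Benjamini-Hochberg adjusted p under 0.05 in edgeR's quasi-likelihood test and a log2 value of at least 1 in size. In Oct4-KO 1300 genes rose (9.25%) and 1244 fell (8.85%), and in Sox2-KO 469 rose (3.34%) and 508 fell (3.61%). The difference between the lines was above 0 for 395 genes (2.81%) and below 0 for 491 (3.49%). Without Sox2 Ctrl 1-10 and 2-6, a fit chosen after seeing the data, 637 genes were called, 228 above 0 and 409 below 0, and in Sox2-KO 408 rose and 433 fell.

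These 886 genes were sorted by what each line did. A gene was opposite where both KO effects were called with opposite signs, and 25 genes were, 19 lower in Oct4-KO and higher in Sox2-KO and 6 the other way. It was Oct4-specific where the Oct4 effect alone was called along with the difference, which held for 591 genes, 284 lower and 307 higher in Oct4-KO. It was Sox2-specific in the mirror case, with 78 genes, 27 lower and 51 higher in Sox2-KO. A further 60 genes moved the same way in both lines but more in the Oct4 line, and 1 gene, Sox2 itself, moved the same way but more in the Sox2 line. For 131 genes the difference passed while neither KO effect did. Without the pair of Sox2 Ctrl embryos the opposite genes numbered 13, the Oct4-specific genes 261 lower and 175 higher, and the Sox2-specific genes 16 lower and 32 higher. The scatter of both KO effects shows these classes around the axes.

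**Figure D1:**
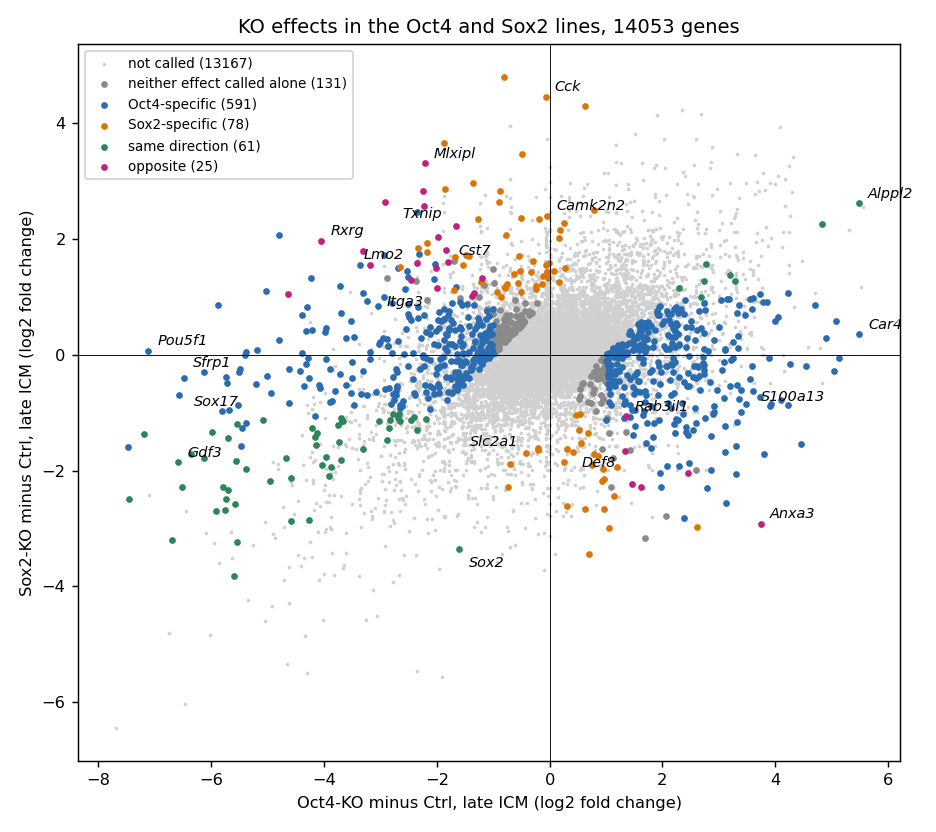
Each point is 1 of 14,053 genes, with its Oct4-KO effect (x axis) and its Sox2-KO effect (y axis) in late ICMs as log2 fold changes against the Ctrl of the same line, coloured by class. The 591 Oct4-specific genes lie along the horizontal axis on both sides, the 78 Sox2-specific genes along the vertical axis, and the 25 opposite genes in the upper left and lower right. Values of genes at or near 0 UMIs in a group depend on the fit's prior count.

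The 25 opposite genes include transcription factors, enzymes, adhesion and trafficking genes, and 1 of them, Mlxipl, belongs to a gene list used here. Median KO effects over the 19 that were lower in Oct4-KO were -2.21 in the Oct4 line and 1.60 in the Sox2 line. Of these 19, 6 met the rule for naming after the predicted genes Gm38100 and Gm13102 were passed over. The rule asked for at least 20 CPM in one group and for every KO embryo of both lines on the called side of its Ctrl median.

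Mlxipl (chr5:135089890-135138382, plus strand) encodes ChREBP, a factor that switches on glycolytic and lipogenic genes when glucose is plentiful. It measured 1.24 to 10.03 CPM with a median of 5.22 in Oct4 Ctrl, 0 to 2.54 with a median of 0.624 in Oct4-KO, 2.16 to 17.3 with a median of 6.55 in Sox2 Ctrl and 50.3 to 90.5 with a median of 67.1 in Sox2-KO. Every Sox2-KO embryo lay above every embryo of the other 3 groups, and the Oct4 groups overlapped at the low end. The KO effects were -2.21 ± 0.73 (adjusted p = 0.014) in the Oct4 line and 3.31 ± 0.39 (adjusted p = 1.1e-10) in the Sox2 line, and the difference was -5.52 ± 0.82 (adjusted p = 3.5e-07). In early ICMs the KO effects were -2.02 (adjusted p = 0.0033) and 2.13 (adjusted p = 1.8e-05), again of opposite sign. Within the embryos numbered 1- the late difference was -6.84 (adjusted p = 1.2e-04), and within those numbered 2- it was -4.06 (adjusted p = 0.17).

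Rxrg (chr1:167598384-167639623, plus strand) encodes a retinoid X receptor, the partner with which several nuclear receptors bind DNA. It measured 0 to 16.05 CPM with a median of 4.54 in Oct4 Ctrl, 0 to 1.27 with a median of 0 in Oct4-KO, 0 to 19.9 with a median of 6.04 in Sox2 Ctrl and 10.2 to 42.3 with a median of 23.02 in Sox2-KO. Of the 8 Oct4-KO embryos 7 had no UMI, and the Sox2-KO embryos overlapped only the upper end of their Ctrl. The UMIs were 27 in Oct4 Ctrl against 1 in Oct4-KO, a ratio of 30.3 (95% counting interval 4.998 to 1242), and the Sox2-KO effect was 1.97 ± 0.46 (adjusted p = 0.0013). The fitted difference had an adjusted p of 4.5e-05 and was -2.88 (adjusted p = 0.43) among embryos numbered 2- alone. Gsdmd (chr15:75862327-75867408, plus strand) encodes gasdermin D, which forms membrane pores once inflammatory caspases cut it. It measured 1.37 to 5.64 CPM with a median of 3.46 in Oct4 Ctrl, 0 in every Oct4-KO embryo, 7.59 to 29.1 with a median of 20.3 in Sox2 Ctrl and 20.5 to 67.5 with a median of 35.5 in Sox2-KO. The Oct4-line ranges did not overlap, with 18 UMIs in Oct4 Ctrl and none in Oct4-KO, so that Gsdmd was at least 6.74-fold lower against a floor of 3 UMIs over the group. In the Sox2 line the effect was 1.05 ± 0.35 (adjusted p = 0.034), and it was 0.94 (adjusted p = 0.10) without the Sox2 Ctrl embryos 1-10 and 2-6. Gsdmd also differed between the Ctrl groups, by -2.43 ± 0.47 (adjusted p = 4.1e-04).

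Lmo2 (chr2:103957986-103981878, plus strand) encodes an adaptor that joins blood-forming transcription factors. It measured 1.79 to 24.4 CPM with a median of 5.58 in Oct4 Ctrl, 0 to 3.46 with a median of 1.39 in Oct4-KO, 8.97 to 26.5 with a median of 14.6 in Sox2 Ctrl and 29.96 to 74.8 with a median of 43.6 in Sox2-KO. The Sox2-line ranges did not overlap, while Oct4-KO lay within and below the Oct4 Ctrl range. Its KO effects were -2.34 ± 0.65 (adjusted p = 0.003) and 1.59 ± 0.36 (adjusted p = 6.0e-04), and in early ICMs the difference was -3.45 ± 0.64 (adjusted p = 7.2e-05). With the MWT control its Oct4 effect was -1.67 (adjusted p = 0.056). Cst7 (chr2:150570415-150578944, plus strand), a cystatin that inhibits cysteine proteases, measured 4.95 to 19.7 CPM with a median of 14.1 in Oct4 Ctrl, 0 to 7.49 with a median of 3.62 in Oct4-KO, 3.24 to 21.7 with a median of 10.8 in Sox2 Ctrl and 14.7 to 57.9 with a median of 25.2 in Sox2-KO. Its ranges overlapped in both lines, with KO effects of -1.81 ± 0.59 (adjusted p = 0.013) and 1.60 ± 0.43 (adjusted p = 0.0053), and with the MWT control the Oct4 effect was -1.20 (adjusted p = 0.14). Itga3 (chr11:95044474-95076801, minus strand), the alpha-3 integrin chain that binds laminin, measured 1.42 to 11.2 CPM with a median of 7.98 in Oct4 Ctrl, 0 to 3.69 with a median of 2.16 in Oct4-KO, 6.73 to 35.7 with a median of 11.6 in Sox2 Ctrl and 11.98 to 65.6 with a median of 31.01 in Sox2-KO. Its KO effects were -1.99 ± 0.57 (adjusted p = 0.0043) and 1.16 ± 0.34 (adjusted p = 0.011). Its difference was called among embryos numbered 1- alone, at -2.79 (adjusted p = 0.044), and among those numbered 2- alone, at -3.81 (adjusted p = 0.023). With the MWT control its Oct4-KO effect was -1.08 (adjusted p = 0.18).

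**Figure D2:**
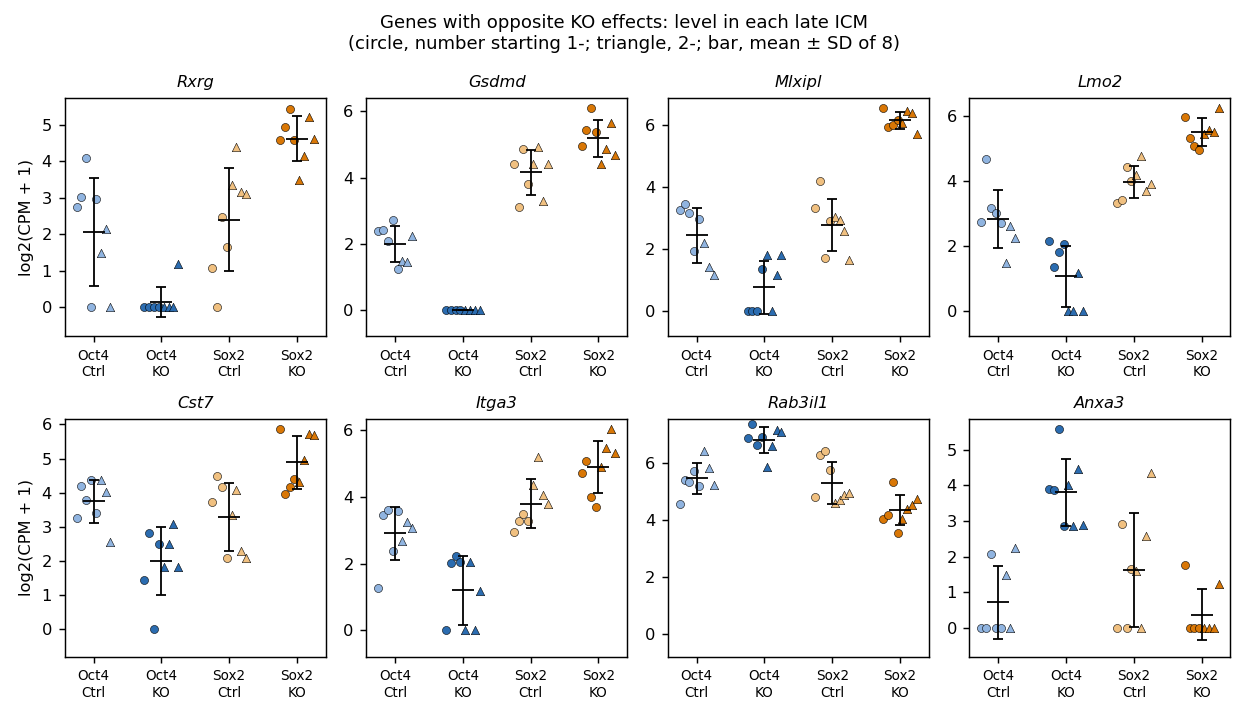
Each point is the level of a gene in 1 late ICM, as log2(CPM + 1), for 6 opposite genes that were lower in Oct4-KO and 2 that were higher. Circles are embryos numbered 1-, triangles those numbered 2-, and bars the mean ± SD of 8. For Mlxipl and Lmo2 all 8 Sox2-KO embryos lie above all 8 Sox2 Ctrl embryos, and for Gsdmd all 8 Oct4-KO embryos are at 0.

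Txnip, Vps37d and Pyy, like Anxa3 and Rab3il1 of the other direction, were picked after their values were seen. Txnip (chr3:96557957-96561883, plus strand), which encodes a thioredoxin-binding protein that restrains glucose uptake and is a well-known target of ChREBP, measured 11.95 to 68.03 CPM with a median of 21.9 in Oct4 Ctrl, 3.46 to 24.1 with a median of 5.49 in Oct4-KO, 1.13 to 46.4 with a median of 15.002 in Sox2 Ctrl and 23.1 to 217 with a median of 68.3 in Sox2-KO. Its KO effects were -1.66 ± 0.47 (adjusted p = 0.0033) and 2.23 ± 0.40 (adjusted p = 1.6e-05). Its late difference was -3.89 ± 0.61 (adjusted p = 1.9e-06), but it was -7.28 (adjusted p = 4.9e-09) among embryos numbered 1- and -0.98 (adjusted p = 0.62) among those numbered 2-, and -1.11 (adjusted p = 0.54) in early ICMs. Vps37d (chr5:135072900-135078266, minus strand), a subunit of the ESCRT-I sorting complex, lies next to Mlxipl. Their gene starts are 11624 bases apart on opposite strands with 0 genes between them, and they are the only pair of the 25 within 100000 bases of each other. Vps37d measured 1.37 to 5.73 CPM with a median of 2.83 in Oct4 Ctrl, 0 to 3.14 with a median of 0 in Oct4-KO, 0 to 7.94 with a median of 4.20 in Sox2 Ctrl and 5.99 to 19.3 with a median of 12.9 in Sox2-KO, with KO effects of -2.02 ± 0.71 (adjusted p = 0.021) and 1.51 ± 0.44 (adjusted p = 0.011). The peptide hormone gene Pyy had a difference of -5.56 ± 1.22 (adjusted p = 0.0011), which rested on Oct4 Ctrl embryo 1-6 at 204.5 CPM. Without that embryo it was -3.17 with an adjusted p of 0.13.

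In the other direction, 6 genes rose in Oct4-KO and fell in Sox2-KO (Anxa3, Fxyd5, Gramd4, Large2, Rab3il1 and Rtn1), and none of them met the rule for naming. Anxa3 (chr5:96793339-96845966, plus strand), a calcium-dependent phospholipid-binding annexin, measured 0 to 3.71 CPM with a median of 0 in Oct4 Ctrl, 6.28 to 46.8 with a median of 13.8 in Oct4-KO, 0 to 19.4 with a median of 2.10 in Sox2 Ctrl and 0 to 2.41 with a median of 0 in Sox2-KO. The Oct4-line ranges did not overlap and the Oct4-KO effect was 3.74 ± 0.64 (adjusted p = 1.6e-06). In the Sox2 line 33 UMIs in Ctrl stood against 3 in KO, a ratio of 10.4 (95% counting interval 3.25 to 52.8), and without the Sox2 Ctrl embryos 1-10 and 2-6 the Sox2-KO effect had an adjusted p of 0.33. Rab3il1 (chr19:10001669-10038380, plus strand), an exchange factor for Rab GTPases, measured 22.7 to 86.01 CPM with a median of 40.8 in Oct4 Ctrl, 58.1 to 166 with a median of 119 in Oct4-KO, 23.4 to 84.9 with a median of 29.5 in Sox2 Ctrl and 10.8 to 40.02 with a median of 18.6 in Sox2-KO. Its KO effects were 1.35 ± 0.27 (adjusted p = 3.4e-05) and -1.06 ± 0.30 (adjusted p = 0.0098), and its early difference was 1.64 ± 0.38 (adjusted p = 0.002). With the MWT control its Oct4-KO effect was 0.18 (adjusted p = 0.62). Without the pair of Sox2 Ctrl embryos 1 of these 6 genes, Gramd4, remained opposite, against 12 of the 19, and the difference between the lines was still called for all 25.

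Promoter sequences, from 250 bases before to 50 after a gene's start, were taken from RefSeq on GRCm38.p6, the assembly that mm10 names, for 18 of the 25 opposite genes, some of which have several starts. They were read because Oct4 and Sox2 have known motifs, and because Mlxipl and Txnip belong to a pathway with a known motif. Both strands were searched, and a gene was counted once if any of its promoters held the motif. The octamer ATGCAAAT was in 0 of the 18 genes, against 1.70% of 10,094 genes tested that have a promoter in the table and 1.97% of 27,025 genes in all. A Sox motif, CATTGT or CTTTGT, was in 4 of 18 (22.2%), against 23.2% of genes tested and 31.7% of all. The joined Oct4 and Sox2 motif was in 0 of 18 and in 0.0594% of genes tested. The E-box CACGTG was in 3 of 18 (16.7%), against 11.9% and 8.09%, and the carbohydrate response element, an imperfect double E-box, was in 1 of 18, against 0.862% and 0.426%. Both E-box motifs were added after the gene names were seen, and a CACGTG can be part of the double element. The promoters of Mlxipl (chr5:135089640-135089939, plus strand), Txnip (chr3:96557707-96558006, plus strand), Itga3 (chr11:95069149-95069448, minus strand) and Rab3il1 (chr19:10017944-10018243, plus strand) are shown 5′ to 3′, as the genes that hold one of these matches and are described above. Capitals mark the E-box in Mlxipl, the double E-box in Txnip, the Sox motif in Itga3, and 2 Sox motifs and 2 E-boxes in Rab3il1. The windows of Itga3 and Rab3il1 lie at a start inside the gene, and those at the first start of each held none of the motifs.
Mlxipl: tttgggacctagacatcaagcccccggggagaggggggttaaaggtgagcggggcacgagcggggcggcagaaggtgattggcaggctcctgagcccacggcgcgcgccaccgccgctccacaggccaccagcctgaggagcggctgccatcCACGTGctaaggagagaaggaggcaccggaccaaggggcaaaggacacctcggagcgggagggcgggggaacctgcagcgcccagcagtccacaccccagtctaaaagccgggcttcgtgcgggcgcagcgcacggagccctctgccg
Txnip: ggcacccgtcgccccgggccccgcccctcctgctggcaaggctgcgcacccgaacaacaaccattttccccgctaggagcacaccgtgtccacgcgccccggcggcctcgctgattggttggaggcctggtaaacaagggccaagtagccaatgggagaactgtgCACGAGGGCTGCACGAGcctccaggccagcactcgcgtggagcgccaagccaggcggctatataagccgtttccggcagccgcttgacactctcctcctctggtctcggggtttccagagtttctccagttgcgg
Itga3: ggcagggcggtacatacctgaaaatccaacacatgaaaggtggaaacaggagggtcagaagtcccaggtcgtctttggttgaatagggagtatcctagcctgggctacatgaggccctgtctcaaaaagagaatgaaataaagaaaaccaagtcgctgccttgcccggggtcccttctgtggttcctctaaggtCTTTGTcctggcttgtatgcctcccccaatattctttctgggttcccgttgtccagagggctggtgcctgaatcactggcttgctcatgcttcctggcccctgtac
Rab3il1: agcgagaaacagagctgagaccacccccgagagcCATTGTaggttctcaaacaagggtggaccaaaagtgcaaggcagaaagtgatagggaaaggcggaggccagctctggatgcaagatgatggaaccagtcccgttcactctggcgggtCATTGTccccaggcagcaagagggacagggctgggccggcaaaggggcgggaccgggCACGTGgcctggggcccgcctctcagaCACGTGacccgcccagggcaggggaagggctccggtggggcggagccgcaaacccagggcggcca
A match describes these letters and is neither a bound site nor a cause.

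The 591 Oct4-specific genes formed the largest class, and 339 of them had a Sox2-KO effect under 0.5 in size on the log2 scale. Pluripotency genes were among them. Of 22 naive pluripotency genes tested, 14 fell in Oct4-KO and 8 in Sox2-KO, none rose in either line, and the difference was called below 0 for 7 and above 0 for none. Among all genes tested the difference was called below 0 for 3.49% and above 0 for 2.81%. DESeq2's Wald test called the difference for 9 of the list. The median over the list was -1.20 in the Oct4 line and -0.63 in the Sox2 line, where the medians over all genes tested were -0.01 and 0.00. Nanog, Esrrb, Klf4, Zfp42 and Dppa3 were Oct4-specific, and Tdgf1 and Utf1 fell in both lines and more in Oct4-KO. Summed epiblast markers, given above, share Nanog, Esrrb, Klf2, Prdm14, Pecam1 and Utf1 with this list and were lower in Oct4-KO than in Sox2-KO without overlap. In an ICM measured whole, fewer epiblast cells and less of these transcripts per cell cannot be told apart.

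Nanog, the homeodomain factor that marks the epiblast, measured 701 to 1430.0 CPM with a median of 946 in Oct4 Ctrl, 225 to 685 with a median of 439.8 in Oct4-KO, 611 to 1411 with a median of 927 in Sox2 Ctrl and 733 to 1465 with a median of 892 in Sox2-KO. All Oct4-KO embryos lay below all Oct4 Ctrl embryos while the Sox2 groups overlapped. Its KO effects were -1.19 ± 0.24 (adjusted p = 2.5e-05) and 0.07 ± 0.23 (adjusted p = 0.89), and in early ICMs the difference was 0.11 ± 0.33 (adjusted p = 0.90). Esrrb, an orphan nuclear receptor of the naive network, measured 83.4 to 139 CPM with a median of 106 in Oct4 Ctrl, 0 to 25.9 with a median of 3.94 in Oct4-KO, 80.2 to 180.1 with a median of 127 in Sox2 Ctrl and 60.3 to 153 with a median of 92.6 in Sox2-KO. The Oct4-line ranges did not overlap and the KO effects were -3.61 ± 0.30 (adjusted p = 2.3e-18) and -0.53 ± 0.22 (adjusted p = 0.095). Its difference, -3.08 late, was -1.65 ± 0.32 (adjusted p = 1.3e-04) in early ICMs. Klf4, a zinc-finger factor of the same network, measured 404 to 675 CPM with a median of 523 in Oct4 Ctrl, 17.3 to 188 with a median of 70.5 in Oct4-KO, 318 to 466 with a median of 419 in Sox2 Ctrl and 166 to 396 with a median of 207 in Sox2-KO. Its KO effects were -2.60 ± 0.26 (adjusted p = 2.1e-14) and -0.80 ± 0.24 (adjusted p = 0.014), so that it was also lower in Sox2-KO, by less than the log2 value of 1 that a call asked for. Its late difference was -1.80 ± 0.34 (adjusted p = 1.1e-04) and its early one -1.72 ± 0.33 (adjusted p = 1.6e-04). The germline and pluripotency genes Zfp42 (Rex1) and Dppa3 (Stella) had late differences of -1.04 (adjusted p = 7.9e-05) and -1.10 (adjusted p = 5.1e-04), and that of Zfp42 was -0.63 (adjusted p = 0.053) with the MWT control.

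Of the 15 naive genes with no called difference, 6 fell in both lines (Klf2, Prdm14, Spp1, Pecam1, Tcl1 and Zfp296). Klf2 had KO effects of -2.62 (adjusted p = 8.3e-15) in the Oct4 line and -2.47 (adjusted p = 1.0e-12) in the Sox2 line, and a difference of -0.14 ± 0.35 (adjusted p = 0.88). Prdm14, a repressor that guards the naive state, had KO effects of -3.88 and -2.04 and a difference of -1.85 ± 0.67 (adjusted p = 0.066). It was called with the MWT control, at -2.78 (adjusted p = 0.0019), and in the fit of the 32 late ICMs with sex as a covariate, at -1.84 (adjusted p = 0.024). For the adhesion gene Pecam1 the KO effects were -1.21 (adjusted p = 0.022) and -3.07 (adjusted p = 2.1e-06) and the difference was 1.86 ± 0.68 (adjusted p = 0.072).

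**Figure D3:**
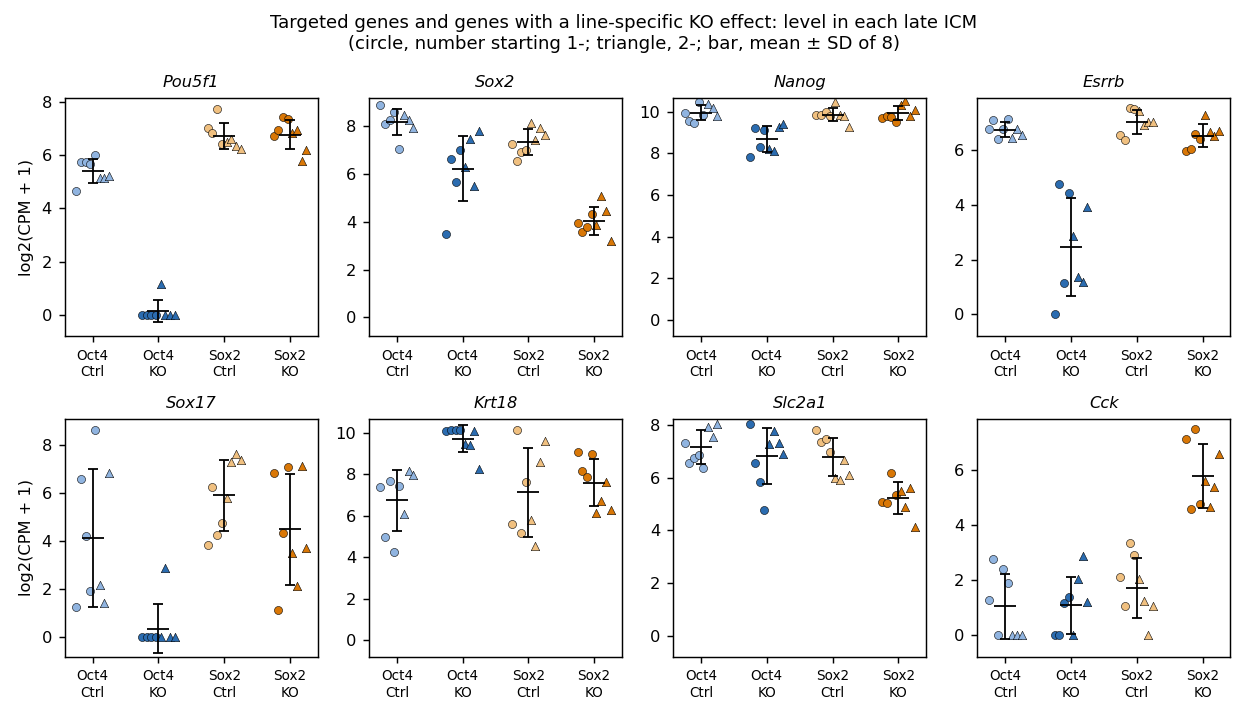
Each point is the level of a gene in 1 late ICM, as log2(CPM + 1), for the targeted genes and for genes with a line-specific effect. Circles are embryos numbered 1-, triangles those numbered 2-, and bars the mean ± SD of 8. Nanog and Esrrb are lower in Oct4-KO alone, Sox17 is at 0 in 7 of 8 Oct4-KO embryos, Slc2a1 is lower and Cck higher in Sox2-KO alone, and for Krt18 the Sox2 Ctrl embryos spread as widely as any group.

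Receptor and ligand lists behaved unevenly. In the LIF and STAT3 list, which carries the signal that sustains naive stem cells in culture, 4 of 10 genes fell in each line, 1 rose in Oct4-KO, and the difference was called for none by edgeR. It was called for 6.3% of all genes tested, a share at which a list of 10 may well hold none. At an unadjusted p under 0.05 there were 4 in the list, and DESeq2's Wald test called 0. The receptor gene Il6st fell in both lines, with KO effects of -3.88 (adjusted p = 6.4e-12) in Oct4-KO and -3.01 (adjusted p = 1.8e-09) in Sox2-KO. So did the feedback inhibitor Socs2, with -3.51 (adjusted p = 1.7e-15) and -2.58 (adjusted p = 4.2e-12). The difference was -1.54 (adjusted p = 0.011) for Socs2 with the MWT control and -5.28 (adjusted p = 0.013) for Il6st among embryos numbered 1- alone. Among the 13 FGF and MAPK genes tested, the growth factor gene Fgf4 fell in both lines, with KO effects of -4.35 (adjusted p = 1.7e-15) and -3.50 (adjusted p = 1.2e-12) and a difference of -0.84 ± 0.54 (adjusted p = 0.39), which was -1.58 (adjusted p = 0.042) with the MWT control. The 1 gene of that list with a called difference was Etv5, a transcription factor downstream of FGF, with 186 to 288 CPM with a median of 222 in Oct4 Ctrl, 2.46 to 22.9 with a median of 8.29 in Oct4-KO, 248 to 372 with a median of 328 in Sox2 Ctrl and 92.9 to 168 with a median of 139 in Sox2-KO. Its ranges did not overlap in either line and the difference was -2.96 ± 0.38 (adjusted p = 8.4e-09). All 4 groups had been grown with the MEK inhibitor, which blocks this pathway.

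Of 11 Nodal, BMP and Wnt genes tested, 5 had a difference below 0 and none above (Gdf3, Bmp4, Sfrp1, Axin2 and Tcf7l1). The shares of all genes tested were 3.49% below and 2.81% above. Sfrp1 (chr8:23411502-23449632, plus strand), which encodes a secreted antagonist of Wnt ligands, measured 16.5 to 44.9 CPM with a median of 26.7 in Oct4 Ctrl, 0 to 1.57 with a median of 0 in Oct4-KO, 61.8 to 169 with a median of 121 in Sox2 Ctrl and 76.7 to 122 with a median of 84.04 in Sox2-KO. The Oct4 groups did not overlap, with 151 against 1 UMI, a ratio of 169.6 (95% counting interval 29.98 to 6742), while the Sox2-KO effect was -0.40 ± 0.27 (adjusted p = 0.36). Sfrp1 also differed between the Ctrl groups, by -2.06 ± 0.31 (adjusted p = 1.8e-06), so its Oct4-line fall started from a lower level. Gdf3 (chr6:122605403-122610087, minus strand), a ligand of the TGF-beta family, measured 57.8 to 169 CPM with a median of 106 in Oct4 Ctrl, 0 to 5.19 with a median of 0.616 in Oct4-KO, 73.7 to 123 with a median of 99.1 in Sox2 Ctrl and 7.24 to 57.5 with a median of 25.2 in Sox2-KO. Its ranges did not overlap in either line, and its KO effects were -6.59 ± 0.46 (adjusted p = 4.7e-22) and -1.85 ± 0.28 (adjusted p = 3.3e-07). Bmp4 had 174 UMIs in Oct4 Ctrl and 2 in Oct4-KO, a ratio of 97.7 (95% counting interval 26.6 to 813), and a Sox2-KO effect of -1.78 ± 0.49 (adjusted p = 0.0066). Axin2, a Wnt target and feedback gene, had KO effects of -0.999 (adjusted p = 0.044) and 0.70 (adjusted p = 0.10) and a difference of -1.70 ± 0.49 (adjusted p = 0.017). That difference was -0.69 (adjusted p = 0.46) with the MWT control and 0.67 (adjusted p = 0.74) among embryos numbered 2- alone.

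Primitive endoderm genes split. Of 17 tested, 10 fell and 3 rose in Oct4-KO, 2 fell in Sox2-KO, and the difference was below 0 for 6 (Sox17, Pdgfra, Hnf4a, Lamb1 and Sparc among them) and above 0 for 2 (Dab2 and Lrp2). All 8 were Oct4-specific with all embryos kept. For comparison, 3.49% of all genes tested were called below 0 and 2.81% above. Hnf4a, a nuclear receptor of endoderm, measured 9.90 to 30.5 CPM with a median of 21.3 in Oct4 Ctrl, 0 to 3.74 with a median of 0.616 in Oct4-KO, 12.9 to 54.3 with a median of 16.3 in Sox2 Ctrl and 23.9 to 48.02 with a median of 28.1 in Sox2-KO. Its Oct4-line ranges did not overlap, and its differences were -4.36 ± 0.61 (adjusted p = 8.7e-08) in late and -7.001 ± 0.72 (adjusted p = 1.4e-12) in early ICMs. The antisense gene Hnf4aos overlaps it and held 14 UMIs against 499. Sox17, the HMG-box factor of endoderm, measured 1.42 to 394 CPM with a median of 10.6 in Oct4 Ctrl, 0 to 6.28 with a median of 0 in Oct4-KO, 13.5 to 195 with a median of 64.9 in Sox2 Ctrl and 1.22 to 137 with a median of 15.8 in Sox2-KO. Its Ctrl embryos spread widely, its late difference was -5.87 ± 1.39 (adjusted p = 0.0027) and its early one -3.62 ± 2.05 (adjusted p = 0.30). With the MWT control the late difference was -0.47 (adjusted p = 0.91) for Sox17, -0.40 (adjusted p = 0.84) for Pdgfra, -0.93 (adjusted p = 0.071) for Lamb1 and -0.63 (adjusted p = 0.43) for Sparc, so that none of these 4 was called, while that of Hnf4a was -4.99 (adjusted p = 6.0e-10). Among embryos numbered 2- alone it was -3.08 (adjusted p = 0.36) for Sox17 and 0.27 (adjusted p = 0.99) for Pdgfra. The endocytic genes Dab2 and Lrp2, which yolk sac and trophectoderm cells both use, rose in Oct4-KO by 2.29 (adjusted p = 3.1e-08) and 3.59 (adjusted p = 2.2e-11). Without the Sox2 Ctrl embryos 1-10 and 2-6 the difference was 1.02 (adjusted p = 0.18) for Dab2 and 1.80 (adjusted p = 0.16) for Lrp2. Both then rose in Sox2-KO as well, by 1.26 (adjusted p = 0.0088) and 1.79 (adjusted p = 0.029), so that 2 genes of the list rose and none fell in Sox2-KO, and the difference was called below 0 for 7 and above 0 for none.

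Trophectoderm genes rose in Oct4-KO, and most calls of a difference above 0 were lost, with values still above 0, when a pair of Sox2 Ctrl embryos was left out. Of 13 trophectoderm factors, 9 rose and none fell in Oct4-KO, and 3 rose and 1 fell in Sox2-KO. The difference was above 0 for 3 of them (Gata2, Elf5 and Tfap2a), against 2.81% of all genes tested, and DESeq2's Wald test called 0. Of 13 structural and transport genes of that tissue, 9 rose and 1 fell in Oct4-KO, 3 rose and 2 fell in Sox2-KO, and the difference was above 0 for 5 (Krt7, Krt18, Tspan8, Fabp3 and Lgals3) and below 0 for 1 (Ezr). Without the Sox2 Ctrl embryos 1-10 and 2-6, which carried the most trophectoderm marker UMIs of their group, the difference was called above 0 for 0 factors (3 had an unadjusted p under 0.05) and for 1 structural gene, Fabp3, and the Sox2-KO median over the structural genes went from -0.19 to 0.99. In Sox2-KO 3 factors then rose and none fell, and 5 structural genes rose and 1 fell. It was then 2.46 (adjusted p = 0.10) for Gata2, 2.96 (adjusted p = 0.13) for Elf5 and 1.09 (adjusted p = 0.51) for Tfap2a, from 3.11, 4.21 and 2.31 with all embryos. Immunosurgery is meant to remove trophectoderm, and the part of left-over trophectoderm in these values was not tested.

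Cdx2, the factor that specifies trophectoderm, measured 6.19 to 13.7 CPM with a median of 10.3 in Oct4 Ctrl, 17.7 to 88.2 with a median of 32.7 in Oct4-KO, 0 to 28.2 with a median of 7.999 in Sox2 Ctrl and 10.2 to 68.3 with a median of 29.4 in Sox2-KO. It rose in both lines, by 1.92 (adjusted p = 4.4e-05) in Oct4-KO and 1.85 (adjusted p = 9.9e-05) in Sox2-KO, and its difference was 0.07 ± 0.55 (adjusted p = 0.98). Gata3, another trophectoderm factor, rose by 2.85 (adjusted p = 7.5e-11) and 1.52 (adjusted p = 4.9e-04). The Gata3 difference was not called in the main fit, but was called with the MWT control and among embryos numbered 1- alone. Without the pair of Sox2 Ctrl embryos it was 0.38 (adjusted p = 0.72). Krt18, a keratin of simple epithelia, measured 18.3 to 289 CPM with a median of 172 in Oct4 Ctrl, 309.9 to 1144 with a median of 1104 in Oct4-KO, 22.5 to 1138 with a median of 126 in Sox2 Ctrl and 69.9 to 536 with a median of 217 in Sox2-KO. Its late difference of 3.004 ± 0.73 (adjusted p = 0.0034) was 1.57 (adjusted p = 0.18) without the pair of Sox2 Ctrl embryos and -0.78 ± 0.76 (adjusted p = 0.60) in early ICMs. Fabp3, a fatty acid binding protein, measured 161 to 823 CPM with a median of 322 in Oct4 Ctrl, 2591 to 4412 with a median of 3355 in Oct4-KO, 41.5 to 788 with a median of 184 in Sox2 Ctrl and 122 to 451 with a median of 259.8 in Sox2-KO. Its Oct4-line ranges did not overlap, and its difference was 3.02 ± 0.50 (adjusted p = 6.0e-06), 2.10 (adjusted p = 0.0016) without that pair, and 1.98 ± 0.51 (adjusted p = 0.006) in early ICMs. Ezr (ezrin), which ties the actin cortex to the apical membrane, went the other way, with 134 to 524 CPM with a median of 293 in Oct4 Ctrl, 20.3 to 106 with a median of 38.7 in Oct4-KO, 268 to 432 with a median of 365 in Sox2 Ctrl and 280.1 to 405 with a median of 296 in Sox2-KO. Its difference was -2.32 ± 0.41 (adjusted p = 2.0e-05) in late and -4.36 ± 0.45 (adjusted p = 1.9e-12) in early ICMs. Elf5 had a late difference of 4.21 ± 1.10 (adjusted p = 0.0076) and an early one of -5.07 ± 1.58 (adjusted p = 0.029), and a pair of its Oct4-KO embryos stood at 69.2 and 68.2 CPM. With the MWT control the late difference of Elf5 was 3.08 (adjusted p = 0.072).

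**Figure D4:**
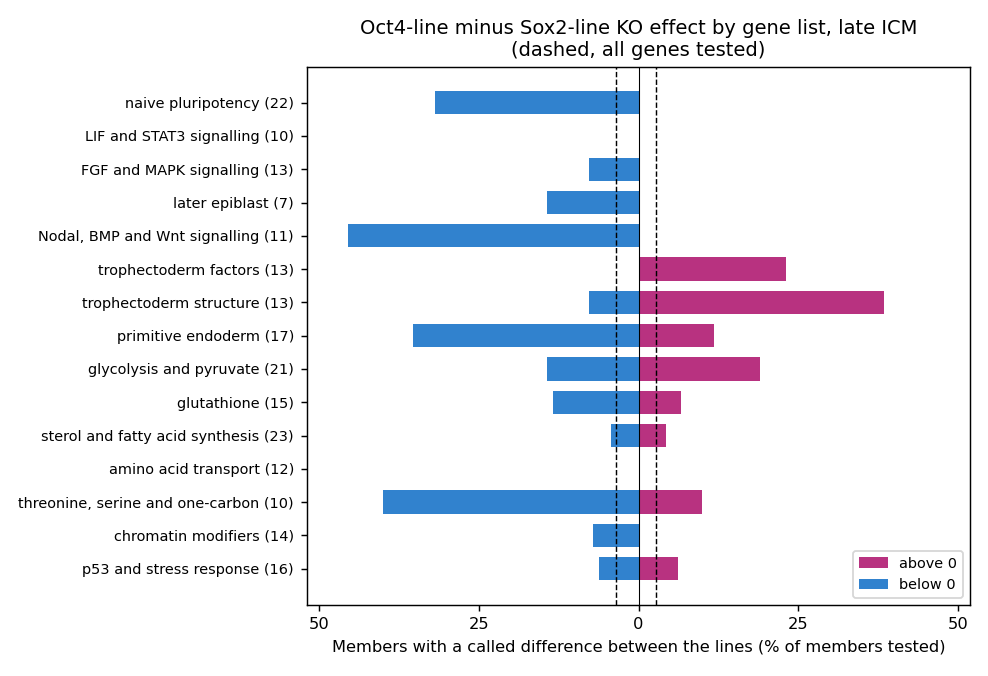
Bars give, for 15 gene lists with the number of members tested in brackets, the percent of members whose KO effect differed between the lines in late ICMs, above 0 to the right and below 0 to the left of the centre line. Dashed lines mark the same percents over all genes tested, 2.81% above and 3.49% below. With all embryos kept, pluripotency and Nodal, BMP and Wnt genes lie below 0 alone and trophectoderm factors above 0 alone, and the 3 trophectoderm factors were no longer called, at smaller values above 0, without Sox2 Ctrl 1-10 and 2-6.

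In the glycolysis and pyruvate list 4 of 21 genes had a difference above 0 and 3 below, against 2.81% and 3.49% of all genes tested. Without the Sox2 Ctrl embryos 1-10 and 2-6 it was above 0 for 2 and below 0 for 3, with Hk2 at 0.60 (adjusted p = 0.43) and Pgk1 at 1.01 (adjusted p = 0.058). Slc2a1 (chr4:119108711-119137983, plus strand), the ubiquitous glucose transporter GLUT1, was Sox2-specific, with 80.96 to 265 CPM with a median of 136 in Oct4 Ctrl, 26.7 to 261 with a median of 137 in Oct4-KO, 59.6 to 224 with a median of 114 in Sox2 Ctrl and 16.3 to 72.04 with a median of 36.1 in Sox2-KO. Its Sox2-KO effect was -1.64 ± 0.30 (adjusted p = 1.9e-05) with overlapping ranges, and its Oct4-KO effect was -0.20 ± 0.28 (adjusted p = 0.63). Its difference was 1.44 ± 0.40 (adjusted p = 0.013), 1.43 (adjusted p = 0.057) in the fit of the 32 late ICMs with sex as a covariate, 0.56 (adjusted p = 0.65) among embryos numbered 2- alone and -0.13 ± 0.41 (adjusted p = 0.90) in early ICMs. It was not called in the fit of the 32 late ICMs alone or in thinned counts either. Slc2a3, the GLUT3 transporter, rose in both lines, by 2.12 (adjusted p = 9.7e-08) and 2.05 (adjusted p = 1.1e-06). Pck2, which makes phosphoenolpyruvate in mitochondria, fell in both lines, with KO effects of -6.36 (adjusted p = 6.0e-19) and -1.72 (adjusted p = 3.3e-06) and a difference of -4.64 ± 0.65 (adjusted p = 9.2e-08). Ldha, lactate dehydrogenase A, measured 0 to 28.2 CPM with a median of 7.70 in Oct4 Ctrl, 0 to 2.54 with a median of 0.616 in Oct4-KO, 47.6 to 235 with a median of 111 in Sox2 Ctrl and 40.9 to 306 with a median of 169 in Sox2-KO. Its difference was -3.90 ± 1.05 (adjusted p = 0.0089), but the Oct4 Ctrl embryos already lay below the Sox2 Ctrl embryos without overlap, by -3.43 ± 0.48 (adjusted p = 4.7e-07), and Ldha has near-identical pseudogene copies.

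In the threonine, serine and one-carbon list 1 of 10 genes had a difference above 0 and 4 below. The shares of all genes tested were 2.81% and 3.49%. Tdh, threonine dehydrogenase, on which mouse stem cells depend, fell in both lines, with KO effects of -4.58 (adjusted p = 6.7e-17) and -2.86 (adjusted p = 5.0e-11) and a difference of -1.72 ± 0.56 (adjusted p = 0.035). Psat1, Shmt2 and Mthfd2 were the other 3 below 0, with differences of -1.11 (adjusted p = 0.0023), -1.18 (adjusted p = 0.038) and -1.69 (adjusted p = 0.0054). Phgdh, the first enzyme of serine synthesis, rose in Oct4-KO alone, with 19.3 to 51.2 CPM with a median of 37.2 in Oct4 Ctrl, 72.7 to 471 with a median of 193 in Oct4-KO, 91.6 to 216 with a median of 109 in Sox2 Ctrl and 53.9 to 250.4 with a median of 79.8 in Sox2-KO. Its Oct4-KO effect was 2.61 ± 0.29 (adjusted p = 1.5e-12), from a Ctrl level below that of the Sox2 line by -1.73 ± 0.29 (adjusted p = 1.8e-05). Of 12 amino acid transporters 8 fell and 1 rose in Oct4-KO, 6 fell in Sox2-KO, and none had a called difference. The share of all genes tested was 6.3%, at which a list of 12 may well hold none. The arginine and lysine transporter Slc7a3 fell in both lines, with KO effects of -4.66 (adjusted p = 2.0e-09) and -5.35 (adjusted p = 8.8e-10). By unadjusted p under 0.05, 1 transporter differed between the lines, and DESeq2's Wald test called 0.

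In the remaining lists the difference was called for 3 of 15 glutathione genes (20%), 1 of 14 chromatin modifiers (7.14%), 2 of 23 sterol and fatty acid genes (8.7%), 2 of 16 p53 and stress genes (12.5%) and 1 of 7 later epiblast genes (14.3%), against 6.3% over all genes tested. Among the glutathione genes, Idh1, the cytosolic NADPH-making isocitrate dehydrogenase, fell in Oct4-KO with 248 to 489.9 CPM with a median of 342 in Oct4 Ctrl, 61.2 to 166 with a median of 109.8 in Oct4-KO, 174 to 313 with a median of 220.4 in Sox2 Ctrl and 234 to 378 with a median of 311 in Sox2-KO. Its difference was -2.07 ± 0.25 (adjusted p = 6.4e-10) in late and -1.52 ± 0.25 (adjusted p = 4.9e-06) in early ICMs. Gstm1 was also below 0, at -3.08 (adjusted p = 0.0012), and Gpx4 above 0, at 1.17 (adjusted p = 8.6e-04). The chromatin modifier was Tet1, which oxidises methylated cytosine. It measured 169 to 433 CPM with a median of 257 in Oct4 Ctrl, 32.01 to 56.5 with a median of 42.1 in Oct4-KO, 208 to 396 with a median of 289 in Sox2 Ctrl and 152 to 267 with a median of 197 in Sox2-KO, with no overlap in the Oct4 line and a difference of -2.14 ± 0.24 (adjusted p = 5.5e-11). Of the sterol and fatty acid genes, Dhcr7 was above 0 at 1.25 (adjusted p = 0.0084) and Mlxipl below. Of the p53 and stress genes, Pmaip1 (Noxa) was above 0 at 2.02 (adjusted p = 0.017), and Trp53 below 0 at -1.52 (adjusted p = 0.013). In the fit of the 32 late ICMs with sex as a covariate their adjusted p was 0.074 and 0.068. The later epiblast gene Foxd3 was below 0 at -2.79 (adjusted p = 0.018), and DESeq2's Wald test called 0 of the 7. Within the label sets the Foxd3 difference was -2.53 (adjusted p = 0.25) among embryos numbered 1- and -3.20 (adjusted p = 0.13) among those numbered 2-. None of 5 sex-linked genes had a called difference by edgeR, and none had an unadjusted p under 0.05 or was called by DESeq2's Wald test.

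Beside Pou5f1 and Sfrp1, the rule for naming gave St3gal4 and Mme among the Oct4-specific falls. St3gal4 (chr9:35046576-35119268, minus strand), a sialyltransferase, measured 3.58 to 20.9 CPM with a median of 15.03 in Oct4 Ctrl, 0 to 1.26 with a median of 0 in Oct4-KO, 14.03 to 27.03 with a median of 23.1 in Sox2 Ctrl and 1.70 to 40.4 with a median of 22.1 in Sox2-KO. The Oct4 groups held 70 and 1 UMI, a ratio of 78.6 (95% counting interval 13.7 to 3149), and the early difference was -5.59 ± 0.95 (adjusted p = 1.3e-05). Mme (chr3:63241537-63386030, plus strand), the membrane peptidase neprilysin, measured 3.58 to 45.4 CPM with a median of 22.7 in Oct4 Ctrl, 0 to 1.26 with a median of 0 in Oct4-KO, 2.65 to 22.7 with a median of 5.22 in Sox2 Ctrl and 0 to 24.7 with a median of 3.06 in Sox2-KO. Its UMIs went from 143 to 2 in the Oct4 line, a ratio of 80.3 (95% counting interval 21.8 to 669), and its early difference was -0.30 ± 0.82 (adjusted p = 0.89).

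Among the Oct4-specific rises it gave Car4, Slc6a13, Ldoc1 and S100a13. Car4 (chr11:84957786-84966044, plus strand), a carbonic anhydrase anchored at the cell surface, measured 0 to 5.38 CPM with a median of 0 in Oct4 Ctrl, 10.99 to 108 with a median of 49.1 in Oct4-KO, 0 to 4.34 with a median of 1.23 in Sox2 Ctrl and 0 to 8.44 with a median of 1.25 in Sox2-KO. Its Oct4 ranges did not overlap and its Oct4-KO effect was 5.49 ± 0.67 (adjusted p = 9.3e-11). Its difference was 5.14 ± 1.20 (adjusted p = 0.0021) in late and 3.28 ± 0.88 (adjusted p = 0.0095) in early ICMs. S100a13 (chr3:90514435-90524581, plus strand), a calcium-binding protein, measured 0 to 19.2 CPM with a median of 8.36 in Oct4 Ctrl, 18.5 to 358 with a median of 70.5 in Oct4-KO, 2.24 to 22.7 with a median of 8.77 in Sox2 Ctrl and 1.20 to 33.8 with a median of 4.92 in Sox2-KO. Its difference was 3.98 ± 0.83 (adjusted p = 4.2e-04), and 0.38 ± 0.93 (adjusted p = 0.87) in early ICMs. Slc6a13 (chr6:121300227-121337733, plus strand), a GABA and taurine transporter, went from 3 to 140 UMIs in the Oct4 line, a ratio of 41.6 (95% counting interval 13.9 to 204). Its difference had an adjusted p of 0.0016, and was 2.71 (adjusted p = 0.65) without the Sox2 Ctrl embryos 1-10 and 2-6. The X-linked gene Ldoc1 (chrX:61709497-61710955, plus strand) rose in Oct4-KO by 4.55 ± 0.69 (adjusted p = 6.4e-08), and its difference of 4.74 ± 1.07 (adjusted p = 0.0013) was 3.81 (adjusted p = 0.061) without that pair.

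Sox2-specific genes were fewer, and 28 of the 78 had an Oct4-KO effect under 0.5 in size. The 4 named falls were Rufy3, Def8, Npepl1 and Slc2a1. Rufy3 (chr5:88565040-88651392, plus strand), an adaptor in lysosome transport, measured 11.3 to 34.2 CPM with a median of 22.003 in Oct4 Ctrl, 20.8 to 53.4 with a median of 26.7 in Oct4-KO, 11.2 to 32.4 with a median of 18.4 in Sox2 Ctrl and 3.41 to 7.80 with a median of 5.17 in Sox2-KO. Its Sox2-line ranges did not overlap, its Sox2-KO effect was -1.68 ± 0.30 (adjusted p = 1.5e-05) and its Oct4-KO effect 0.42 ± 0.25 (adjusted p = 0.21). Def8 (chr8:123423527-123463270, plus strand), a regulator of lysosome position, measured 19.8 to 37.1 CPM with a median of 27.9 in Oct4 Ctrl, 17.2 to 62.8 with a median of 35.9 in Oct4-KO, 21.5 to 47.6 with a median of 29.9 in Sox2 Ctrl and 4.46 to 16.3 with a median of 9.48 in Sox2-KO. Its Sox2-line ranges did not overlap, and its differences were 1.94 ± 0.34 (adjusted p = 2.5e-05) in late and 2.35 ± 0.33 (adjusted p = 1.1e-07) in early ICMs. Npepl1 (chr2:174110349-174123070, plus strand), a probable aminopeptidase, had a difference of 1.49 ± 0.46 (adjusted p = 0.027) that was 0.96 (adjusted p = 0.24) without the Sox2 Ctrl embryos 1-10 and 2-6. That difference was called in 6 of 13 alternative fits.

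The 4 named rises in Sox2-KO were Cck, Camk2n2, Cd79b and Ppp1r26. Cck (chr9:121489824-121495694, minus strand), which encodes the peptide hormone cholecystokinin, measured 0 to 5.73 CPM with a median of 0.709 in Oct4 Ctrl, 0 to 6.24 with a median of 1.25 in Oct4-KO, 0 to 9.06 with a median of 2.19 in Sox2 Ctrl and 23.2 to 181 with a median of 44.3 in Sox2-KO. All Sox2-KO embryos lay above every embryo of the other 3 groups, and the Sox2-KO effect was 4.46 ± 0.52 (adjusted p = 7.4e-11). Its late difference was -4.53 ± 1.22 (adjusted p = 0.0087), -4.11 ± 1.24 (adjusted p = 0.023) in early ICMs and -0.78 (adjusted p = 0.94) among embryos numbered 2- alone. Camk2n2 (chr16:20619215-20621287, minus strand), an inhibitor of the kinase CaMKII, measured 0 to 16.1 CPM with a median of 8.37 in Oct4 Ctrl, 1.73 to 14.1 with a median of 8.05 in Oct4-KO, 1.08 to 12.2 with a median of 6.07 in Sox2 Ctrl and 15.6 to 60.2 with a median of 33.4 in Sox2-KO. The Sox2-line ranges did not overlap and the difference was -2.45 ± 0.50 (adjusted p = 3.2e-04), against -0.41 ± 0.53 (adjusted p = 0.72) in early ICMs. Cd79b (chr11:106311341-106314762, minus strand), known as a chain of the B cell receptor, measured 3.71 to 10.2 CPM with a median of 6.96 in Oct4 Ctrl, 1.57 to 13.97 with a median of 7.30 in Oct4-KO, 3.97 to 19.3 with a median of 8.86 in Sox2 Ctrl and 26.9 to 77.5 with a median of 46.3 in Sox2-KO. Its Sox2-line ranges did not overlap and its Sox2-KO effect was 2.16 ± 0.33 (adjusted p = 3.0e-07). Ppp1r26 (chr2:28446800-28455508, plus strand), a regulatory subunit of protein phosphatase 1, had a Sox2-KO effect of 1.63 ± 0.36 (adjusted p = 4.2e-04) and an Oct4-KO effect of -0.29 ± 0.41 (adjusted p = 0.64).

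Among genes that moved the same way by different amounts, Kit, Gdf3, Alppl2 and Mycbpap were named beside Sox2. Kit (chr5:75574916-75656722, plus strand), the receptor for stem cell factor, measured 5.49 to 53.9 CPM with a median of 25.6 in Oct4 Ctrl, 0 in every Oct4-KO embryo, 2.65 to 26.99 with a median of 9.34 in Sox2 Ctrl and 0 to 6.03 with a median of 1.77 in Sox2-KO. It had 133 UMIs in Oct4 Ctrl and none in Oct4-KO, at least 49.8-fold lower against the floor of 3 UMIs, and its Sox2-KO effect was -2.49 ± 0.55 (adjusted p = 5.7e-04). Alppl2 (chr1:87086694-87089928, minus strand), an embryonic alkaline phosphatase with close paralogs among which reads may be split, measured 1.43 to 25.6 CPM with a median of 14.9 in Oct4 Ctrl, 182 to 983 with a median of 526 in Oct4-KO, 6.11 to 52.1 with a median of 30.2 in Sox2 Ctrl and 40.7 to 472 with a median of 136 in Sox2-KO. It rose in both lines, by 5.49 ± 0.57 (adjusted p = 1.1e-13) and 2.62 ± 0.49 (adjusted p = 2.9e-05), and its difference was 2.87 ± 0.75 (adjusted p = 0.0069). With the MWT control that difference was 1.17 (adjusted p = 0.31). Mycbpap (chr11:94501347-94521742, minus strand) rose by 4.83 ± 0.53 (adjusted p = 1.6e-12) and 2.27 ± 0.49 (adjusted p = 3.2e-04), and its difference of 2.56 ± 0.82 (adjusted p = 0.033) was 2.56 (adjusted p = 0.062) without the Sox2 Ctrl embryos 1-10 and 2-6.

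The difference between the lines also takes in any difference between their Ctrl embryos. The Ctrl groups differed from each other for 370 genes (2.63%), and for 62 of the 886 (7%). The share was 5 of 25 opposite genes (20%), 38 of 591 Oct4-specific genes (6.43%) and 11 of 78 Sox2-specific genes (14.1%). With the MWT late ICMs in place of Oct4 Ctrl, the difference was called for 623 of the 886 and for 25 of the 25 opposite genes, of which 14 stayed opposite. That fit called 1087 of all 14,053 genes tested, and kept the Oct4-KO and Sox2-line embryos by which the 886 were chosen. Within embryos numbered 1- and within those numbered 2-, 877 of the 886 had the same sign in both as in the whole. Of the 886, 371 were called in the first, 213 in the second and 104 in both. Among all 14,053 genes tested, 8335 had the same sign in both, 534 were called in the first and 307 in the second. Since the 886 were chosen over these same embryos, their match in sign was largely set by that choice. In a fit of the 32 late ICMs alone, the difference was called for 24 of the 25 opposite genes, of which 15 stayed opposite. Of the 222 list members tested, 51 had a called difference, of which 38 were called with the MWT control, where 17 others were called too. With sex added to the fit of 32 as a covariate, 685 of the 886 were called, among them all 25 opposite genes, of which 7 stayed opposite. This fit called 728 of all genes tested.

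Early ICMs, collected at E3.75 from other embryos of the same lines after the same treatment, gave a reading of the same contrast. It came from the same fit, with a shared estimate of the spread, and any fixed difference between the lines enters at both stages. It was called for 776 genes there (5.52%). Of the 886 late genes, 238 (26.9%) were called in early ICMs, 234 with the same sign and 4 with the other (Abracl, Elf5, Hk2 and Inava, the last and the first chosen after their values were seen). The sign was the same for 752 of the 886 (84.9%), where it was the same for 61.1% of all genes tested. Of the 25 opposite genes 24 had the same sign of the difference and 11 were called (44%). The early KO effects themselves had opposite signs for 18 of the 25, and 4 met the rule for opposite genes in early ICMs too. Of the Oct4-specific genes, 104 of 284 falls (36.6%) and 42 of 307 rises (13.7%) were called in early ICMs. Of the 78 Sox2-specific genes 25 were called (32.1%), all with the same sign. In morulae, 17 of the 886 were called out of 50 over all genes.

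**Figure D5:**
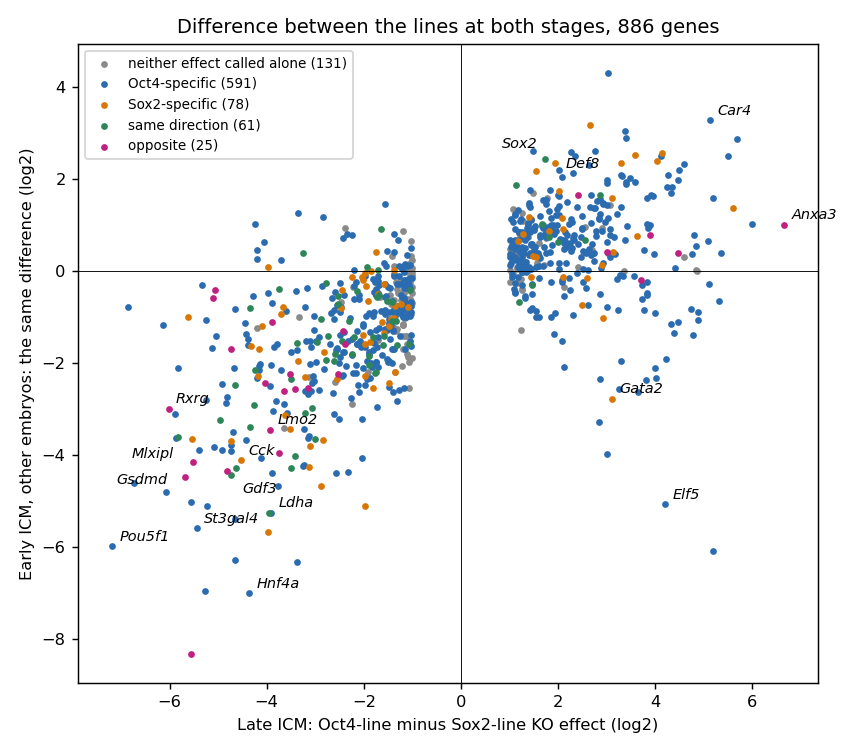
Each point is 1 of the 886 genes with a called difference between the lines in late ICMs, with that difference in log2 units on the x axis and the same difference in early ICMs, from other embryos, on the y axis. Of these genes 752 lie in the lower left or upper right, where the signs match, and Elf5 and Gata2 are among those in the lower right.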

How the data were processed

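Whole transcriptomes were measured in single late ICMs. By the methods text, the authors handled UMIs with UMI-tools, trimmed with Cutadapt, aligned to mm10 with TopHat2 using GENCODE vM23, assigned reads to genes with featureCounts and estimated molecules with TRUmiCount. Versions and the use of strand are not given in the sources used here, so genes that overlap on opposite strands are uncertain. The deposited table holds whole-number counts of UMIs for 29,022 genes without normalization. A second table of rlog values made by the authors was not used.

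The 14,053 genes found in a share of 0.5 or more of the embryos at any 1 stage were fitted over 96 Ctrl and KO embryos in 12 groups with edgeR 4.0.16 in R 4.3.3 (TMM, glmQLFit, glmQLFTest, no covariates). The late ICM contrast was (Oct4-KO minus Ctrl) minus (Sox2-KO minus Ctrl). Every adjusted p is Benjamini-Hochberg over all genes tested, two-sided, and the number after ± is the standard error, the log2 value divided by the square root of F. Levels are TMM-scaled CPM, given as the lowest, highest and median of 8 embryos. Marker sums were scaled by total UMIs alone. Ratios of UMI sums carry exact 95% Poisson intervals. A group at 0 was given a floor of 3 UMIs.

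The members, gene lists and rules were chosen with earlier results of these data known. Named were the targeted genes, list members and, among genes with at least 20 CPM in the highest group mean and every KO embryo on the called side of its Ctrl median, those with the largest differences: up to 6 opposite genes per direction, 4 line-specific genes per line and direction, and 2 same-direction genes per direction and line. Predicted genes and Riken clones were passed over. Exceptions are named where they occur. Alternatives were other scalings, filters, DESeq2 1.42.0, label sets, MWT controls, thinned counts, sex, and each embryo left out. The script was tested on simulated counts. No gene set was tested.

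The stage of the MWT late ICMs is that of their titles, and their source name gives an earlier stage. List members not tested, for low detection, were Nr0b1, Etv4, Fgf5, Zic2, Sox3, Sall2, Lef1, Nodal, Lefty2, Sox7, Foxa2, Rspo3, Slc16a3, Mgst1 and Slc7a11.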

Additional observations from a re-analysis of the deposited data

Results flagged for a closer look

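The KO effect differed between the lines for all 27 genes that the naming rule picked by the size of the difference, targeted genes and list members included, by the test of the difference itself, which they had to pass to be named. Below 0, the fitted log2 differences were -7.19 for Pou5f1, -6.08 for Sfrp1, -6.02 for Rxrg, -5.68 for Gsdmd, -5.52 for Mlxipl, -5.44 for St3gal4, -5.34 for Mme, -4.96 for Kit, -4.73 for Gdf3, -4.53 for Cck, -3.93 for Lmo2, -3.41 for Cst7, -3.15 for Itga3, -2.45 for Camk2n2, -1.98 for Cd79b and -1.92 for Ppp1r26. Above 0, they were 5.19 for Slc6a13, 5.14 for Car4, 4.74 for Ldoc1, 3.98 for S100a13, 2.87 for Alppl2, 2.56 for Mycbpap, 2.10 for Rufy3, 1.94 for Def8, 1.74 for Sox2, 1.49 for Npepl1 and 1.44 for Slc2a1. Those of Pou5f1, Sfrp1, Rxrg, Gsdmd, St3gal4, Mme, Kit and Slc6a13 depend on the prior count, since a group had 0 to 3 UMIs.

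A single embryo stood apart from the other 7 of its group in 4 of 100 gene and group combinations, where chance gives about 1 in 20. Sfrp1 was at 122 CPM in Sox2-KO embryo 2-8, with the others at 76.7 to 95.4. St3gal4 was at 1.70 CPM in Sox2-KO embryo 2-10, with the others at 17.2 to 40.4. Mme was at 3.58 CPM in Oct4 Ctrl embryo 2-1, the shallowest embryo, with the others at 18.8 to 45.4. Camk2n2 was at 0 CPM in Oct4 Ctrl embryo 2-4, with the others at 4.81 to 16.1. The difference between the lines for these 4 genes was called in every fit that left out 1 embryo.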

How the results depend on the processing

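The main counts were 886 differing, 2544 Oct4-KO, 977 Sox2-KO, 25 opposite, 591 Oct4-specific and 78 Sox2-specific genes. Leaving out 1 embryo at a time gave 780 to 923, 2385 to 2548, 849 to 1043, 19 to 29, 512 to 615 and 63 to 84, all within 1.5 times. Other scalings, DESeq2's Wald test and no filter also stayed within it. With a mean of at least 10 UMIs required, Oct4-KO changed 1594 genes and Sox2-KO 634. With no fold minimum these were 4450 and 1935, and 56 genes were opposite. With the 32 late ICMs fitted alone 693 genes differed, 817 changed in Sox2-KO, 16 were opposite, 470 Oct4-specific and 53 Sox2-specific. Embryos numbered 1- alone gave 534 differing, 430 Sox2-KO, 13 opposite and 31 Sox2-specific genes. Embryos numbered 2- alone gave 307 differing, 1424 Oct4-KO, 10 opposite, 177 Oct4-specific and 42 Sox2-specific genes. Both fits had fewer late ICMs per group and kept all embryos of the other stages. Of the 25 main opposite genes, 8 stayed opposite among late ICMs numbered 1- and 1 among those numbered 2-. Among the latter, 125 of the 591 Oct4-specific and 9 of the 78 Sox2-specific genes kept their class. In fits of the 32 late ICMs alone, which change a further choice at once, counts thinned to 525,755 UMIs gave 508 differing, 640 Sox2-KO, 12 opposite, 354 Oct4-specific and 31 Sox2-specific genes, and sex as a covariate gave 9 opposite and 49 Sox2-specific. Without Sox2 Ctrl 1-10 and 2-6, chosen after seeing the data, 13 were opposite and 48 Sox2-specific. The cause was not tested. Among the named and opposite genes, Pyy changed sign, to 0.39 among embryos numbered 2-, as did Pdgfra and Axin2 of the lists, at 0.27 and 0.67.

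Same numbers were not treated as pairs of Ctrl and KO embryos in the Sox2 line, since the labels tie no number to a litter or day. For the 4 shared numbers the correlation of deviations was -0.02, 0.09, 0.16 and 0.20, and 3 of 4 correlated best with their own number. What a shared number marks was not tested. A replicate block over these 8 embryos gave 638 Sox2-KO genes, against 320 without it. The Oct4 line shared 1 number, so the difference between the lines had no paired form.

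Among the 27 named genes, the difference was not called without Sox2 Ctrl 1-10 for Slc6a13, Oct4 Ctrl 1-3 for Cck, Oct4 Ctrl 1-4 for Ppp1r26, in 4 of 32 such fits for Npepl1 and in 7 for Mycbpap. Depth limits genes near 1 UMI per embryo, about 1.90 CPM in the shallowest.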
